A study of Mus musculus with 6 samples.

Results

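The let-7 guide strands and miR-98 are 9 mature mouse miRNAs, mmu-let-7a-5p, mmu-let-7b-5p, mmu-let-7c-5p, mmu-let-7d-5p, mmu-let-7e-5p, mmu-let-7f-5p, mmu-let-7g-5p, mmu-let-7i-5p and mmu-miR-98-5p, written without the prefix mmu from here on. They were taken by name from a table of 778 miRNAs, all 9 were found, and all 9 passed the filter on low counts. The cells were primary mesangial cells of the mouse, which are contractile and hold the capillary loops of the kidney glomerulus in place, and their small RNA was sequenced in 3 Control libraries and 3 TGF-b1 libraries. All cells were kept in medium with 25.5 mM glucose and 20% foetal bovine serum and were used between passages 3 and 6. The TGF-b1 cells received transforming growth factor β1, a cytokine that drives renal fibrosis, at 10 ng/ml for 72 h, and the Control cells are labelled only as controls. The strain, sex and age of the mice are not stated in the sources used here, nor is it stated whether the 3 libraries of a group came from separate cultures, so p-values measure the spread between libraries, which may be technical. Values are reads per 1000000 reads of the library (RPM), and library totals were 16478281 to 20169254 reads.

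MiRNAs are short RNAs cut from hairpin precursors, and 1 strand, the guide, is kept by an Argonaute protein and pairs with target mRNAs mainly through its seed, bases 2 to 8 from the 5′ end. The let-7 miRNAs accumulate as cells differentiate, are held back by the RNA-binding protein Lin28 in stem and embryonic cells, and repress growth genes such as Ras and Hmga2. Several hairpins encode the same or nearly the same guide, so the family acts through a pool of strands with a common seed.

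The sequences are printed because the 9 guides are told apart by few bases, which bears on how their reads can be counted. They are RefSeq mature sequences (build GRCm38.p6), 22 nt each, written 5′ to 3′ with the seed in capitals.
let-7a-5p: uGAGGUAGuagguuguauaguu
let-7b-5p: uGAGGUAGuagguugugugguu
let-7c-5p: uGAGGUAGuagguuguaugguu
let-7d-5p: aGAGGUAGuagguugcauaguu
let-7e-5p: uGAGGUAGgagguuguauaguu
let-7f-5p: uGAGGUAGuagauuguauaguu
let-7g-5p: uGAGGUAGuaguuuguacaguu
let-7i-5p: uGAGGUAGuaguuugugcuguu
miR-98-5p: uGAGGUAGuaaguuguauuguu
The seed is the same in all 9, and these 9 were the only rows with it among the 581 rows whose names matched the RefSeq table. The strands varied at 8 positions and were identical at the other 14. Counted from the 5′ end and written from let-7a-5p, let-7c-5p differs by A19G, let-7b-5p by A17G and A19G, let-7e-5p by U9G, let-7f-5p by G12A, let-7d-5p by U1A and U16C, let-7g-5p by G12U and U18C, miR-98-5p by G11A and A19U, and let-7i-5p by G12U, A17G, U18C and A19U. Of the 36 pairs of members, 4 differed by 1 base: let-7a with let-7c, let-7a with let-7e, let-7a with let-7f, and let-7b with let-7c. Reads were compared with known miRNAs using Bowtie, and the counting of reads with more than 1 matching miRNA is not given in the sources used here. None of the 9 rows was identical to another row of the table.

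The 9 guides are encoded by 12 hairpins in the RefSeq table, 2 each for let-7a, let-7c and let-7f and 1 each for the others. In GRCm38.p6, Mirlet7d (chr13:48536012-48536114), Mirlet7f-1 (chr13:48537829-48537917) and Mirlet7a-1 (chr13:48538179-48538272) lie together on the minus strand. Mirlet7c-2 (chr15:85706603-85706697) and Mirlet7b (chr15:85707319-85707403) lie on the plus strand with 621 bp between them. Mirlet7e (chr17:17830352-17830444) lies 367 bp from Mir125a, Mirlet7c-1 (chr16:77599657-77599750) 656 bp from Mir99a, and Mirlet7a-2 (chr9:41536716-41536811) 5211 bp from Mir100. Mirlet7f-2 (chrX:151912346-151912428) and Mir98 (chrX:151913214-151913321) lie in introns of Huwe1, a ubiquitin ligase gene, and Mirlet7g (chr9:106178840-106178927) in an intron of Wdr82, whose product is part of histone methyltransferase complexes, as annotated in GENCODE vM1. Mirlet7i (chr10:122985640-122985724) lies outside other genes of that annotation.

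Lists of marker miRNAs were summed to describe the cells, which does not establish their identity. The 5 mesenchymal or contractile miRNAs summed to between 17369 and 18849 RPM in Control and between 17949 and 21734 in TGF-b1. Most of this was miR-21-5p, with means of 15381 and 16920 RPM, whereas miR-143-3p had 2029 and 2052, miR-199a-3p 601.3 and 484.0, miR-145-5p 127.4 and 238.6, and miR-214-3p 8.55 and 7.17. The 2 endothelial markers, the 2 of 4 leukocyte markers that had a row and the 2 erythroid markers each summed to at most 0.360 RPM in every library. The 7 epithelial markers summed to 315.0 to 329.0 RPM in Control and 342.6 to 367.1 in TGF-b1, mostly from miR-192-5p, while miR-200a-3p went from a mean of 12.7 to 1.23 RPM and miR-200c-3p and miR-141-3p were near 0. In such bulk samples, fewer cells of a type and less RNA per cell cannot be told apart. The single hepatocyte marker, miR-122-5p, had 24.2 to 27.3 RPM in Control and 13.1 to 13.9 in TGF-b1. The 3 striated muscle markers summed to 3440 to 3646 RPM in Control and 3285 to 3465 in TGF-b1, almost all from miR-206-3p, while miR-133a-3p had a mean of 0.0807 RPM in Control.

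The family filled most of each library. The 9 guides together took 66.2%, 65.6% and 66.7% of all reads in Control replicates 1 to 3, and 58.6%, 60.9% and 59.4% in TGF-b1 replicates 1 to 3. The groups did not overlap, and the mean went from 66.2% ± 0.549 to 59.7% ± 1.18 (n = 3 each, SD; exact two-sided permutation p = 0.1, the smallest that 3 against 3 libraries allow), but the direction turned with other scalings, where the difference was 2.62 (TMM), 2.52 (median of ratios) and 6.89 (upper quartile) points of the scaled library total. Reads in all 778 rows moved with the groups as well, from 79.6% ± 0.142 of the library total in Control to 72.3% ± 0.752 in TGF-b1 (n = 3 each, SD), and the part of the remaining reads in the result was not tested. As a share of the reads in the rows the family had 83.1% ± 0.637 in Control and 82.5% ± 0.779 in TGF-b1 (n = 3 each, SD), with overlapping groups (exact two-sided permutation p = 0.4). Whether the family as a whole changed therefore depended on what it was measured against, and the members were compared with each other.

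**Figure D1:**
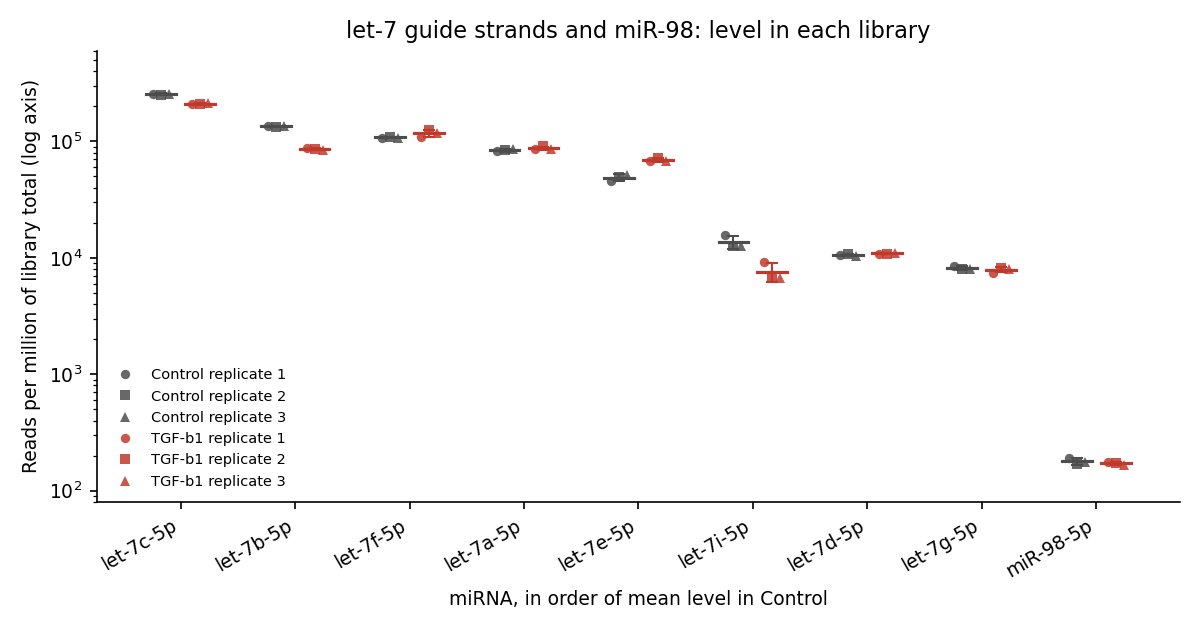
Level of each of the 9 miRNAs in RPM of the library total (log axis), with Control in grey and TGF-b1 in red; symbols mark the 3 libraries of a group, bars the mean and SD. The levels run from 165.1 RPM for miR-98-5p to 256743 RPM for let-7c-5p, and the groups do not overlap for let-7b-5p, let-7c-5p, let-7e-5p and let-7i-5p.

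Members with the same seed differed widely in level. In Control the order of mean RPM was let-7c-5p (254593), let-7b-5p (134167), let-7f-5p (107940), let-7a-5p (83764), let-7e-5p (48897), let-7i-5p (13622), let-7d-5p (10550), let-7g-5p (8188) and miR-98-5p (179.0), and no neighbours in this order overlapped over the 3 libraries. The first 5 were also the 5 most abundant rows of the table, whereas miR-98-5p ranked 67. In TGF-b1 the order was let-7c-5p (210302), let-7f-5p (117167), let-7a-5p (87565), let-7b-5p (85880), let-7e-5p (69198), let-7d-5p (10883), let-7g-5p (7889), let-7i-5p (7585) and miR-98-5p (171.4). Let-7b-5p thus moved from the second place to the fourth and let-7i-5p from the sixth to the eighth. In TGF-b1 let-7a-5p overlapped let-7b-5p, and let-7g-5p overlapped let-7i-5p, so these neighbours did not differ beyond the spread. Ligation and amplification can favour some small RNAs over others, so levels of different miRNAs are shares of reads and not of molecules.

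The main result was a change in the make-up of the family after TGF-β1. Let-7b-5p, let-7c-5p and let-7i-5p lost share and let-7a-5p, let-7d-5p, let-7e-5p and let-7f-5p gained it, while let-7g-5p and miR-98-5p did not pass the test. Together the 3 losers went from 60.8% ± 0.744 of the family sum in Control to 50.9% ± 1.22 in TGF-b1, and the 4 gainers from 37.9% ± 0.788 to 47.7% ± 1.19 (n = 3 each, SD). A share within the family does not depend on how libraries are scaled, although a gain by 1 member must lower the shares of others.

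Let-7b-5p, the guide that carries both A17G and A19G, had 20.5%, 20.1% and 20.2% of the family sum in Control replicates 1 to 3 and 15.1%, 14.0% and 14.2% in TGF-b1 replicates 1 to 3. Every TGF-b1 library lay below every Control library. The mean share went from 20.3% ± 0.214 to 14.4% ± 0.589 (n = 3 each, SD), and the log2 change after scaling each library to its family sum was -0.49 ± 0.04 (SE; limma with Benjamini-Hochberg adjustment over 408 miRNAs, adjusted p = 5.16e-05).

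Let-7c-5p, the most abundant guide, had 38.8%, 38.2% and 38.4% in Control replicates 1 to 3 and 35.5%, 34.6% and 35.7% in TGF-b1. The groups again did not overlap, with a log2 change of -0.13 ± 0.02 on the same scale (limma SE, adjusted p = 0.00383). Let-7i-5p had 2.37%, 1.91% and 1.90% in Control and 1.56%, 1.13% and 1.13% in TGF-b1. Replicate 1 was the highest of each group, yet all TGF-b1 libraries were below all Control libraries. Its log2 change of -0.70 ± 0.14 (limma SE, adjusted p = 0.00475) was the furthest from 0 among the 9 members and had the largest error.

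Let-7e-5p, the guide with U9G next to the seed, had 6.88%, 7.51% and 7.77% of the family sum in Control replicates 1 to 3 and 11.6%, 11.8% and 11.4% in TGF-b1. This was the largest gain in share, from 7.39% ± 0.455 to 11.6% ± 0.160 (n = 3 each, SD), and its log2 rise was 0.65 ± 0.05 (limma SE, adjusted p = 5.16e-05). Let-7f-5p had 16.2%, 16.7% and 16.1% in Control and 18.6%, 20.6% and 19.8% in TGF-b1, with a log2 change of 0.27 ± 0.04 (limma SE, adjusted p = 0.00159). The lowest TGF-b1 library, replicate 1, still lay above all Control libraries.

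Let-7a-5p had 12.4%, 12.7% and 12.9% in Control and 14.6%, 14.9% and 14.6% in TGF-b1, with a log2 change of 0.21 ± 0.03 (limma SE, adjusted p = 0.00112). Let-7d-5p, a minor member from the same cluster of chromosome 13 as let-7a and let-7f, had 1.60%, 1.64% and 1.54% in Control and 1.83%, 1.78% and 1.86% in TGF-b1, with a log2 change of 0.19 ± 0.05 (limma SE, adjusted p = 0.0129). The call for let-7d-5p was lost without TGF-b1 replicate 3 (limma adjusted p = 0.0566) and when let-7c-5p was left out of the family sum (limma adjusted p = 0.0890).

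Let-7g-5p had 1.29%, 1.23% and 1.19% of the family sum in Control and 1.27%, 1.33% and 1.36% in TGF-b1, and the groups overlapped (log2 change 0.10 ± 0.05, limma SE, adjusted p = 0.185). MiR-98-5p had 0.0290%, 0.0260% and 0.0262% in Control and 0.0302%, 0.0282% and 0.0278% in TGF-b1, again with overlap (log2 change 0.09 ± 0.10, limma SE, adjusted p = 0.519). Both had at least 2821 reads in each library, and the part of counting error in their spread was not tested.

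**Figure D2:**
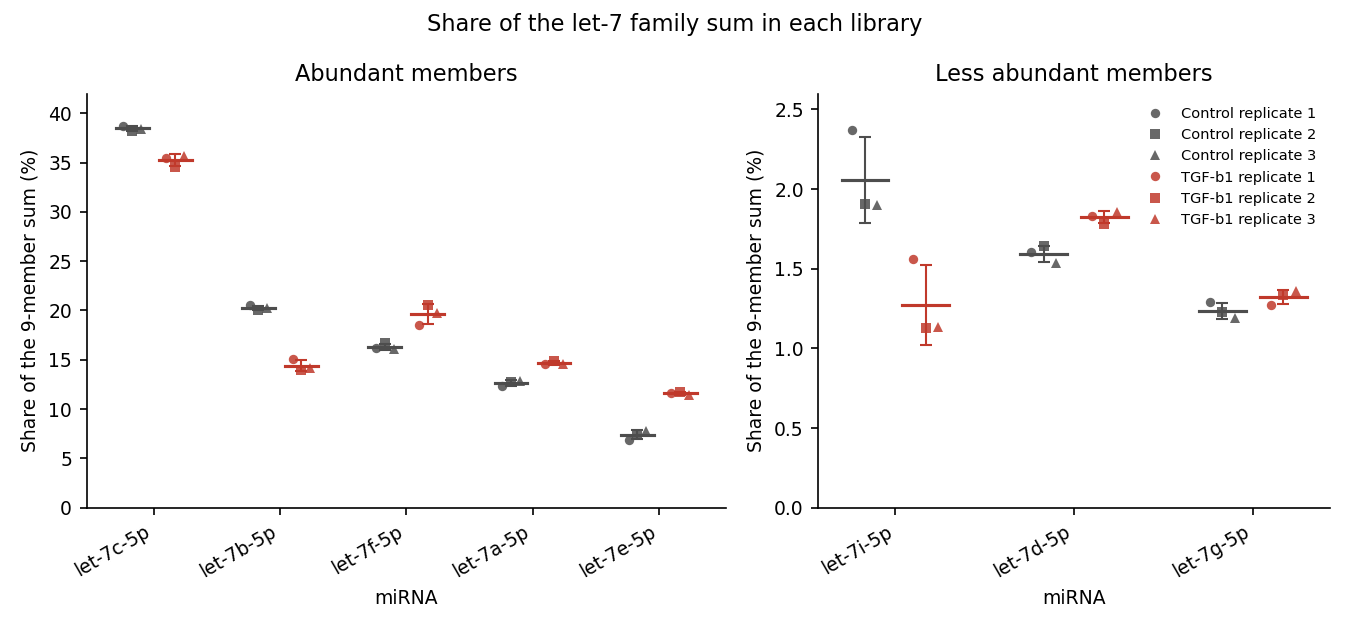
Share of the 9-member sum (%) in each library, with Control in grey and TGF-b1 in red, bars for mean and SD, and a separate axis for the 3 less abundant members; miR-98-5p, at about 0.03%, is not drawn. Let-7c-5p, let-7b-5p and let-7i-5p are lower in all TGF-b1 libraries, let-7f-5p, let-7a-5p, let-7e-5p and let-7d-5p are higher, and let-7g-5p overlaps.

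Of the 9 members, 4 were called higher and 3 lower on this scale at a limma adjusted p under 0.05. Over all 408 miRNAs tested, 20.6% were higher and 24.3% lower on the same scale, and 44.9% were called in either direction, so calls were common in the whole table. By share, Control and TGF-b1 were fully separated for 7 of the 9 members, 4 higher and 3 lower. Over all tested miRNAs scaled in this way 57.6% were separated, 27.5% higher and 30.1% lower. No member had an absolute log2 change above 1 on this scale or in RPM, where 12.3% of all tested miRNAs were called with such a change. The median log2 change was 0.10 for the members and -0.07 for all tested miRNAs. Exact two-sided permutation tests of the 9 shares gave p = 0.1, the smallest possible, for the 7 members without overlap, 0.2 for let-7g-5p and 0.3 for miR-98-5p.

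In RPM of the library total, where the typical miRNA had a log2 change of -0.17, 1 member was called higher and 3 lower, against 17.4% and 31.9% of all tested miRNAs and 49.3% in either direction. The same 4 members were those whose groups did not overlap, against 56.9% of all tested miRNAs, with 20.8% higher and 36.0% lower. With TMM scaling 4 members were higher and 2 lower, where 24.0% and 23.0% of all tested miRNAs were (47.1% in all), and with scaling to the sum of the rows 4 were higher and 3 lower, where 20.6% and 25.5% were (46.1% in all). Let-7b-5p had 135859, 131822 and 134821 RPM in Control replicates 1 to 3 and 88326, 85139 and 84175 in TGF-b1 replicates 1 to 3, so TGF-b1 had 0.640 of the Control mean. The log2 change of let-7b-5p was -0.64 ± 0.03 (limma SE, adjusted p = 6.48e-06) with TGF-b1 below Control in every library, and under upper-quartile scaling it was -0.33 and no longer passed (limma adjusted p = 0.157). Let-7i-5p had 15690, 12511 and 12665 RPM in Control and 9153, 6864 and 6737 in TGF-b1, or 0.557 of the Control mean (log2 change -0.85 ± 0.13, limma SE, adjusted p = 0.00166). It was the only member called lower under all 4 other scalings of the whole table.

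Let-7c-5p had 256743, 250714 and 256323 RPM in Control and 207925, 210768 and 212214 in TGF-b1. Its log2 change of -0.28 ± 0.02 (limma SE, adjusted p = 6.05e-05) was closest to that of the typical miRNA among the 4 called members, and it was not called under TMM (-0.06) or median-of-ratios scaling (-0.07) and turned to 0.04 under upper-quartile scaling. Let-7e-5p had 45597, 49297 and 51798 RPM in Control and 68004, 71626 and 67965 in TGF-b1, or 1.42 times the Control mean. It was the only member called higher in RPM (log2 change 0.50 ± 0.05, limma SE, adjusted p = 0.000215), and it was called higher under each of the 4 other scalings too.

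The other 5 members did not pass in RPM of the library total, but let-7f-5p, let-7a-5p and let-7d-5p were called higher once TMM was applied (log2 changes 0.33, 0.28 and 0.26, limma adjusted p = 0.0115, 0.0205 and 0.0116). All 3 were also called higher with scaling to the sum of the rows (log2 changes 0.26, 0.20 and 0.18), let-7f-5p and let-7d-5p with median of ratios (0.32 and 0.25), and none of the 3 with upper-quartile scaling. Let-7f-5p had 107366, 109347 and 107108 RPM in Control and 108761, 125315 and 117426 in TGF-b1 (log2 change 0.12 ± 0.05, limma SE, adjusted p = 0.0845), and let-7a-5p had 81872, 83454 and 85966 against 85499, 90535 and 86659 (0.06 ± 0.03, limma SE, adjusted p = 0.162). Let-7f-5p passed without TGF-b1 replicate 1, the lowest of its group, at a log2 change of 0.17 (limma adjusted p = 0.00678). Let-7d-5p ranged from 10266 to 10762 RPM in Control and from 10737 to 11052 in TGF-b1, let-7g-5p from 7946 to 8559 and from 7468 to 8131, and miR-98-5p from 170.4 to 192.1 and from 165.1 to 177.1. Control and TGF-b1 overlapped for all 5. The signs of let-7g-5p (-0.05) and miR-98-5p (-0.06) turned positive under each of the 4 other scalings, without passing the test.

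**Figure D3:**
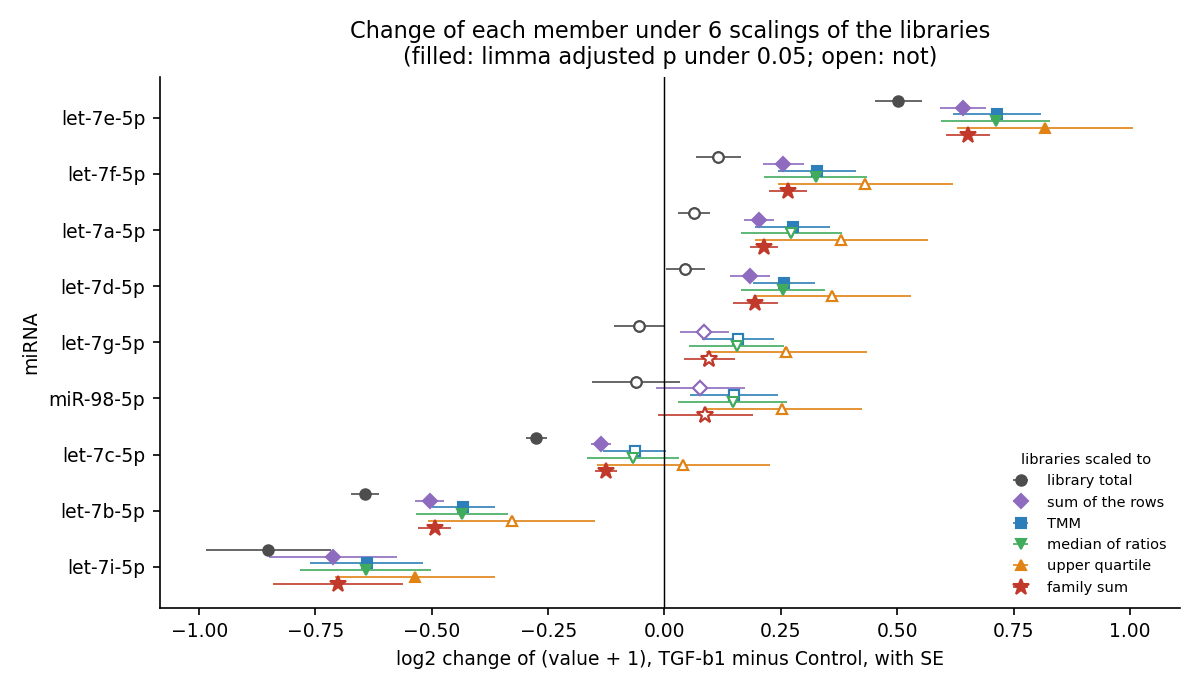
Log2 change of (value + 1) for each member, TGF-b1 minus Control with SE, under 6 scalings of the libraries; filled symbols passed a limma adjusted p of 0.05 and open ones did not. A change of scaling shifts all 9 members together and leaves their order, with let-7e-5p at the top and let-7i-5p and let-7b-5p at the bottom, while let-7c-5p crosses 0 under upper-quartile scaling and let-7g-5p and miR-98-5p are below 0 only with the library total.

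Ratios between members need no scaling, and 6 of them were tested by exact permutation (two-sided), for which the smallest possible p is 0.1. Let-7b and let-7c-2 share a locus of chromosome 15, yet the ratio of let-7b-5p to let-7c-5p was 0.529, 0.526 and 0.526 in Control and 0.425, 0.404 and 0.397 in TGF-b1. The Control libraries were almost equal, and the log2 ratio was lower by 0.37 in TGF-b1 with no overlap (p = 0.1, exact permutation test). The second let-7c hairpin lies on chromosome 16, and reads do not tell which hairpin a let-7c guide came from.

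The ratio of let-7e-5p to let-7b-5p showed the widest move of the 6, from 0.336, 0.374 and 0.384 in Control to 0.770, 0.841 and 0.807 in TGF-b1. This was a difference of 1.15 in the log2 ratio (exact permutation p = 0.1). The pair sets a member that gained share against 1 that lost it, so the ratio restates those changes. The ratio of let-7a-5p to let-7c-5p, which differ only by A19G, went from 0.319, 0.333 and 0.335 to 0.411, 0.430 and 0.408, a log2 difference of 0.34 (exact permutation p = 0.1). It too sets a gainer against a loser and restates their changes in share. The ratio of let-7g-5p to let-7i-5p went from 0.545, 0.644 and 0.627 to 0.816, 1.18 and 1.20, with TGF-b1 replicate 1 nearest to Control and a log2 difference of 0.80 (exact permutation p = 0.1). As let-7i-5p lost share, this ratio in part restates that fall.

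The remaining ratios overlapped between the groups. Mirlet7f-1 and Mirlet7a-1 are neighbours on chromosome 13. Let-7f-5p to let-7a-5p was 1.31, 1.31 and 1.25 in Control and 1.27, 1.38 and 1.36 in TGF-b1, a log2 difference of 0.05 (exact permutation p = 0.3). MiR-98-5p to let-7f-5p, whose Mirlet7f-2 and Mir98 hairpins both lie within Huwe1 on chromosome X, had a log2 difference of -0.18 (exact permutation p = 0.2). Let-7a-5p and let-7f-5p each come from 2 hairpins on different chromosomes, so both of these ratios mix loci. For the 4 ratios without overlap, leaving out 1 library cannot turn the direction, so this was no further check. How reads of near-identical guides were assigned, and its part in these ratios, was not tested. How often ratios of other miRNAs separate was not tested either, while 56.9% of all tested miRNAs did not overlap in RPM.

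The changes in share were set beside the bases in which the members differ. Let-7a-5p, a gainer, is the reference and matches itself by definition. The other gainers had its base at positions 17, 18 and 19, while all 3 losers carried A19G or A19U. Let-7b-5p and let-7i-5p, the 2 members with A17G, had the largest log2 falls, and together went from 22.3% ± 0.478 of the family sum to 15.7% ± 0.836 (n = 3 each, SD). The members that did not pass were outside the pattern. Let-7g-5p carries U18C. MiR-98-5p carries A19U as let-7i-5p does, yet its mean share went from 0.0270% to 0.0287%, with overlap. The GC content of a guide ranged from 31.8% in let-7f-5p and miR-98-5p to 45.5% in let-7b-5p, and the mean over all family reads went from 39.7% ± 0.0384 in Control to 39.0% ± 0.125 in TGF-b1 (n = 3 each, SD). Let-7c-5p, let-7d-5p, let-7e-5p and let-7i-5p had 40.9% GC each, and 2 of these 4 gained and 2 lost share. The mean GC is computed from the shares, and a link between GC content and share was not tested. These comparisons describe 9 related sequences, which are not independent, and the grouping was read from the same shares.

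Some let-7 hairpins are transcribed together with miR-99, miR-100 or miR-125 hairpins. Of these 5 partners, scaled to the family sum, miR-125b-5p was called higher and the other 4 were not called, whereas in RPM 1 was higher and 3 were lower. Over all tested miRNAs 20.6% were higher and 24.3% lower scaled to the family sum, and 17.4% higher and 31.9% lower in RPM. MiR-125b-5p had 835.6, 942.8 and 780.1 RPM in Control and 1038, 1152 and 1374 in TGF-b1 (log2 change in RPM 0.47 ± 0.12, limma SE, adjusted p = 0.0126). MiR-99a-5p, miR-100-5p and miR-125a-5p had log2 changes of -0.36, -0.33 and -0.39 in RPM (limma adjusted p = 0.0106, 0.0318 and 0.0292), none of which passed under TMM, median-of-ratios or upper-quartile scaling, and that of miR-125a-5p did not pass without Control replicate 1, Control replicate 2 or TGF-b1 replicate 2, nor that of miR-100-5p without Control replicate 1 or 2 or TGF-b1 replicate 1 or 2. MiR-99b-5p was at -0.06 (limma adjusted p = 0.638).

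The ratio of let-7e-5p to both miRNAs of its cluster was higher in all TGF-b1 libraries. Its ratio to miR-125a-5p was 56.6, 52.9 and 69.6 in Control and 99.5, 133.1 and 101.6 in TGF-b1, a log2 difference of 0.90 (exact two-sided permutation p = 0.1). Its ratio to miR-99b-5p was 19.3, 19.9 and 23.5 in Control and 31.8, 33.8 and 26.8 in TGF-b1, a log2 difference of 0.56 (exact permutation p = 0.1).

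The ratio of let-7c-5p to miR-99a-5p, which are neighbours on chromosome 16, overlapped, at 733.5, 682.3 and 748.2 in Control and 712.1, 758.5 and 825.2 in TGF-b1 (exact permutation p = 0.4). Let-7a-5p to miR-100-5p was higher in TGF-b1 by 0.40 on the log2 scale, while let-7a-5p and let-7c-5p to miR-125b-5p were lower by 0.41 and 0.75, each without overlap (exact permutation p = 0.1). These were 6 ratios in all, and how often ratios of other pairs separate was not tested. Let-7a, let-7c and miR-125b each come from more than 1 hairpin, so their ratios mix loci.

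**Figure D4:**
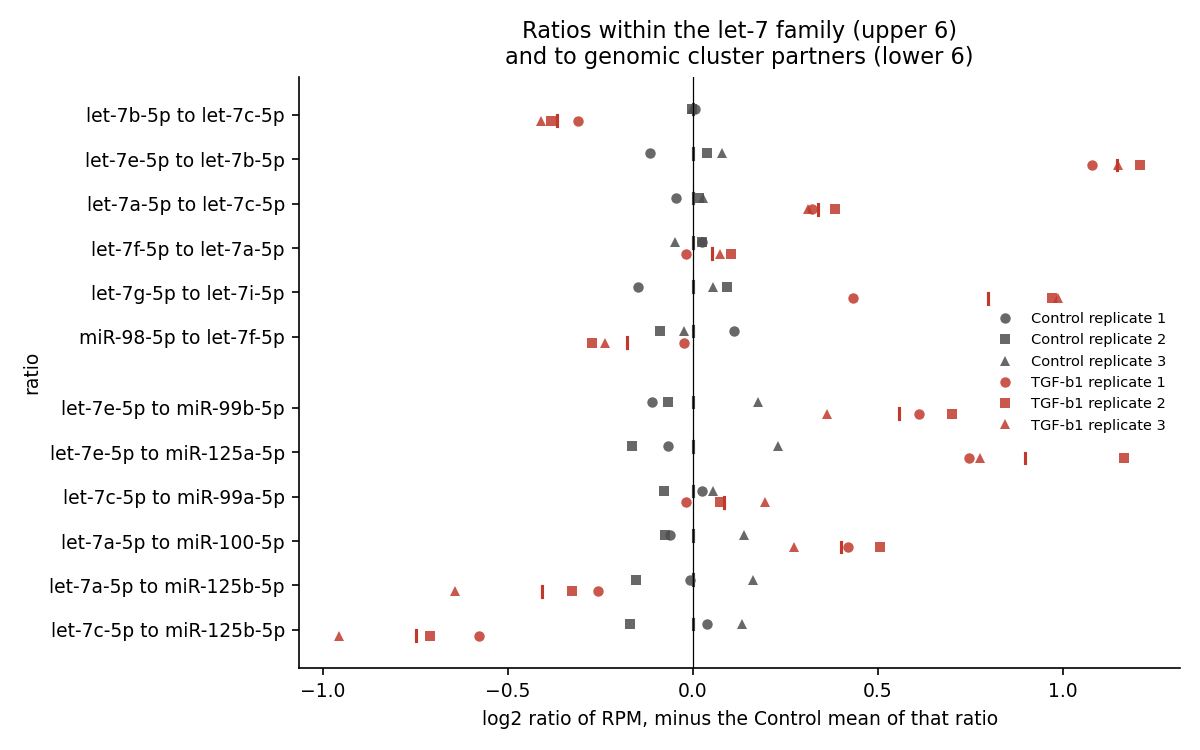
Log2 ratios of RPM in each library after subtraction of the Control mean of that ratio, for the 6 pairs within the family (upper) and the 6 pairs with cluster partners (lower); grey is Control, red is TGF-b1, and ticks mark group means. The pair let-7e-5p to let-7b-5p moved furthest, by 1.15, and the groups overlap for let-7f-5p to let-7a-5p, miR-98-5p to let-7f-5p and let-7c-5p to miR-99a-5p.

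The opposite arms of the same hairpins, the passenger strands, gave a second readout at far lower counts. Of 12 rows of 3p arms, 8 could be tested, and 1 was lower and 0 were higher in RPM (limma adjusted p under 0.05; the same numbers resulted after scaling to the family sum). Over all tested miRNAs, 31.9% were lower and 17.4% higher in RPM, and 24.3% and 20.6% after scaling to the family sum. Let-7i-3p had 6.80, 6.29 and 2.95 RPM in Control and 2.93, 1.23 and 1.46 in TGF-b1, so the lowest Control library and the highest TGF-b1 library nearly met. Its log2 change in RPM was -1.13 ± 0.31 (limma SE, adjusted p = 0.0179). Log2 arm ratios were taken after 1 RPM was added to each arm, which weighs on 3p arms of a few RPM. On that scale the ratio of let-7i-5p to let-7i-3p overlapped between the groups (exact two-sided permutation p = 0.5). The call rests on 22 to 112 reads per library and was lost without Control replicate 1 or 2 or TGF-b1 replicate 2 or 3 (limma adjusted p = 0.0676, 0.0770, 0.0634 and 0.0532).

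Let-7b-3p had 7.22, 11.0 and 7.32 RPM in Control and 8.87, 6.87 and 9.31 in TGF-b1, and did not pass (limma adjusted p = 0.973). The log2 ratio of let-7b-5p to let-7b-3p was lower by 0.63 in TGF-b1 without overlap (exact permutation p = 0.1), the only 1 of 5 arm ratios for which this was so. The margin was narrow, with 13.43 in Control replicate 2 and 13.40 in TGF-b1 replicate 2, and can depend on the added 1 RPM. The log2 change in RPM was -0.01 ± 0.19 for let-7b-3p and -0.64 ± 0.03 for let-7b-5p (limma SE). The part of each arm in the ratio was not tested. In RPM 56.9% of all tested miRNAs had no overlap, while how often arm ratios of other hairpins separate was not tested. Let-7e-3p had 2.16 to 5.52 RPM in Control and 2.40 to 4.51 in TGF-b1, and the log2 ratio of let-7e-5p to let-7e-3p overlapped (difference 0.61; exact permutation p = 0.2). Let-7d and miR-98 had arm ratio differences of 0.05 and -0.10, with exact permutation p of 0.8 and 0.5.

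The guides outnumbered the 3p arms by 68.6 times in miR-98, 223.3 times in let-7d, 2937 times in let-7i, 13057 times in let-7b and 16901 times in let-7e, by the means over the 6 libraries. The rows of let-7a-1-3p and let-7c-2-3p, which have the same mature sequence, held equal reads in 4 of 6 libraries and differed by at most 1 read in the others, so these arms cannot be told apart. Let-7g-3p, let-7f-2-3p and let-7a-2-3p had at most 2 reads in any library.

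Among 66 other miRNAs with a mean of at least 100 RPM, those whose log2(RPM + 1) followed let-7b-5p most closely over the 6 libraries were miR-26a-5p (Pearson r = 0.997), miR-503-5p (r = 0.997) and miR-101a-3p (r = 0.995). They went from 543.6 ± 38.1 to 194.5 ± 18.2 RPM, from 717.5 ± 31.4 to 142.9 ± 8.76 and from 456.9 ± 29.4 to 121.3 ± 22.8 (n = 3 each, SD), and their log2 changes of -1.48, -2.32 and -1.92 were further from 0 than that of let-7b-5p. Those closest to let-7e-5p were miR-320-3p (r = 0.963), miR-182-5p (r = 0.911) and miR-192-5p (r = 0.904). The 6 libraries form 2 separate groups, so each r is a description only.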

How the data were processed

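Small RNA of 6 libraries, 3 Control and 3 TGF-b1, was sequenced by the authors on an Illumina HiSeq 2000. The authors removed adaptors, low-quality reads and reads under 18 nt and compared the rest with miRBase 17 using Bowtie. The deposited unit is named TPM and is RPM here, since reads per 1000000 of a library total gave whole reads for 100% of values (tolerance 0.002). As planned for normalized values, log2(value + 1) was fitted by group in limma 3.58.1 (R 4.3.3, prior with a trend), with no other term, over the 408 miRNAs kept by filterByExpr of edgeR 4.0.16 (minimum count 10), with Benjamini-Hochberg adjustment at 0.05. For shares, each library was first rescaled to its sum of the 9 members. Fold changes are on the log2(value + 1) scale. Exact permutation tests, two-sided, served for single values (scipy 1.17.1). Alternatives were other scalings, filters, pseudocounts and family references, edgeR and DESeq2 1.42.0 on recovered reads, a replicate block and each library left out. No pair of replicates agreed within sampling noise (chi-square per degree of freedom of at least 38.5). The limma fits in RPM and in share, edgeR and DESeq2 were tested on simulated reads. In these simulations no member changed, so the share fit was not tried with members that move. The miRNAs named were the 9 members, their 3p arms, 5 cluster partners, marker lists and the 3 miRNAs closest to let-7b-5p and to let-7e-5p. The members, lists and tests were chosen with earlier results of these data known. Sequences and coordinates are from RefSeq (GRCm38.p6), host genes from GENCODE vM1 by name.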

Additional observations from a re-analysis of the deposited data

How the results depend on the processing

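The counts by share moved less than those in RPM. This follows in part from the design, since a share cancels the scalings that were varied in RPM. With the geometric mean of the members as reference, no filter, other pseudocounts or edgeR, 4 members were higher and 3 lower, against 3 and 3 with let-7c-5p left out of the sum, and 3 to 4 and 3 without 1 library. In RPM the lower members numbered 3, but 1 with upper-quartile scaling and 2 with TMM, median of ratios, edgeR with TMM, DESeq2 and both scalings over the tested rows alone. The higher ones numbered 1, whereas TMM gave 4, median of ratios 3, the sum of the rows 4 and edgeR with TMM 2. TMM over the tested rows alone, chosen after seeing the data like upper quartile over these rows, gave 2. Leaving out each library gave 1 to 2 higher and 3 lower, with 2 without TGF-b1 replicate 1. A change of scaling shifts all members together, and why the scalings differ from each other was not tested.

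Values that changed sign were the family sum (-6.53 points, but 2.62 by TMM, 6.89 by upper quartile and 2.52 by median of ratios, the last added after seeing the data) and the RPM log2 change of let-7c-5p (0.0401 with upper quartile). The RPM log2 change of let-7g-5p turned to 0.157, 0.155, 0.262 and 0.0852 with TMM, median of ratios, upper quartile and the sum of the rows, to 0.0987 and 0.0837 with TMM and upper quartile over the tested rows, and to 0.101 and 0.163 with edgeR under TMM and DESeq2, while edgeR with library totals kept it at -0.0536. In the same order of the settings that turned it, miR-98-5p turned to 0.149, 0.147, 0.253, 0.0772, 0.0906, 0.0757, 0.0910 and 0.153, and miR-99b-5p to 0.156, 0.153, 0.260, 0.0835, 0.0970, 0.0820, 0.0992 and 0.162. The log2 difference in arm ratio of let-7d spanned -0.0445 to 0.134, and that of miR-98 -0.290 to 0.0678, over the fits without 1 library.

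Over the tested miRNAs, deviations of same-numbered libraries from their group means had correlations of -0.0841, -0.208 and -0.345. With 3 libraries per group these values cannot tell whether libraries were matched by number. A fit with the replicate block had 1 member higher and 3 lower in RPM, and 4 and 3 in share. Under the block only the RPM calls of miR-100-5p and miR-125a-5p were lost among the results recomputed with it (limma adjusted p = 0.0809 and 0.0601). With 3 libraries per group the exact permutation tests cannot give a p below 0.1.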
